A study of Mus musculus with 7 samples.

Results

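The semaphorins, plexins, Eph receptors, ephrins, Slits, Robo receptors, Unc5 receptors and netrins are cell-surface and secreted guidance proteins, and their RNA was measured in MS-1 cells with and without overexpression of lipoprotein lipase (LPL). Their genes were taken by symbol, which gave 65 of the 49585 genes listed: 20 semaphorins, 9 plexins, 14 Eph receptors, 8 ephrins, 3 Slits, 4 Robo receptors, 4 Unc5 receptors and 3 netrins. A filter on low counts left 51 of them for testing, and the other 14 had at most 14 reads in any library. MS-1 is an endothelial line of mouse pancreatic islets, grown in DMEM. The groups were 3 libraries of wild-type cells (control) and 4 libraries of cells of the same line that overexpress LPL. The labels do not give the vector, the species of the introduced gene, or whether the cells came from 1 clone, and no library of cells with an empty vector was analysed. They also do not say whether replicates were separate cultures, so the p-values measure the spread between libraries, which may be technical.

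Guidance proteins steer growing axons and vessel sprouts by binding receptors on neighbouring cells. Semaphorins signal through plexins, and most secreted class 3 semaphorins need a neuropilin as co-receptor. Ephrins are membrane-bound ligands of the Eph receptor tyrosine kinases and signal in both directions between touching cells. Slits bind Robo receptors, and netrins bind Unc5 receptors and Dcc. In vessels, Efnb2 is known as an arterial and Ephb4 as a venous gene, and Plxnd1, Robo4 and Unc5b are the members of their families best known from endothelium.

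The libraries held between 24328418 and 29210847 reads in the sense orientation. Lpl had 1, 1 and 6 reads in the controls and between 10867 and 12753 in the overexpression libraries. Of 14 endothelial markers 13 were tested, and their summed level was 6997 to 7111 CPM (reads scaled to a library of 1000000) in the controls and 5598 to 5771 CPM with overexpression, with 9 lower, 1 higher and 3 not passing. Of the defining endothelial markers Pecam1 and Cdh5 were abundant in every library, while Cldn5 had 1 read in the controls and 0 with overexpression. The summed level of 12 pigment cell markers was 3.19 to 3.76 CPM in the controls and 1423 to 1491 CPM in the overexpression libraries. All 12 were higher, and 7 of them (Tyrp1, Dct, Mlana, Tyr, Mlph, Sox10 and Oca2) had no control read. The part of these RNAs in the results on guidance genes was not tested. In bulk RNA, fewer cells of a type and less RNA per cell cannot be told apart.

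Guidance genes split between a set of large rises from almost no control reads and a broad set of small falls among the genes that the controls expressed. Of the 51 members tested, 35 passed the threshold of an adjusted p under 0.05 in edgeR's quasi-likelihood test, 16 higher and 19 lower. Over all 13639 genes tested the share called was 43.2%, with 21.9% higher and 21.3% lower. Groups did not overlap in 16 members upward and 18 downward, against 22.8% and 21.8% of all genes. A rise of at least 2-fold was called in 10 members (4.53% of all genes), of which 9 exceeded 4-fold (2.95% of all genes). A fall of at least 2-fold was called in 1 member, Epha5 (0.513% of all genes). All 10 rises and the fall of Epha5 were in genes that passed the filter only through the group where they were higher. The median log2 fold change was 0.13 over the members tested and 0.00 over all genes. Among all called genes 50.7% were higher, a share that became 65.1% when libraries were scaled by their total count and 61.5% on log2(TPM + 0.5). Among the called members it was 45.7%, 52.8% and 51.6% under the same settings.

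**Figure D1:**
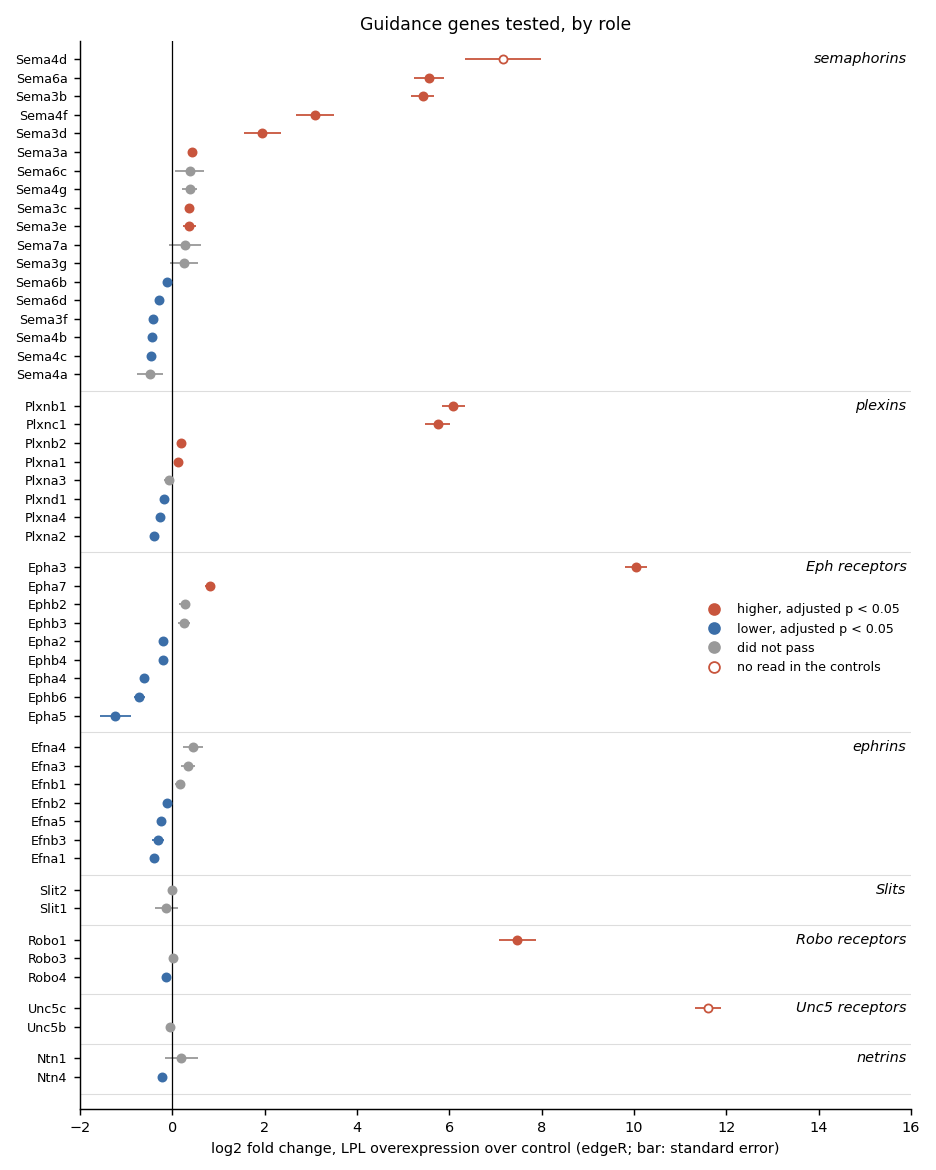
Log2 fold change of LPL overexpression over control for the 51 guidance genes tested, ordered within each role, with bars for the standard error. Open circles mark genes with no control read, whose fitted value depends on the prior count; 9 genes stand above 3 and the others lie between -1.24 and 1.95.

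The large rises were in 9 genes that had at most 10 reads over the 3 controls: the semaphorins Sema3b, Sema4d, Sema4f and Sema6a, the plexins Plxnb1 and Plxnc1, and the receptors Epha3, Robo1 and Unc5c. This cut on control reads was chosen after the values were seen. Genes so low in the controls passed the filter through the overexpression libraries, and all 304 such genes in the whole table were called higher, so the direction of these 9 was fixed by the cut. The 4 libraries of these rises are also those with the pigment cell markers, whose part in them was not tested. Among the 42 members with more than 10 control reads, 7 rose, 19 fell and 16 did not pass, with a median log2 fold change of -0.10. Of these, Sema3d passed the filter only through the overexpression libraries and Epha5 only through the controls, so the filter also set their directions. In the whole table the 13335 genes with more than 10 control reads gave 2684 rises and 2900 falls.

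**Figure D2:**
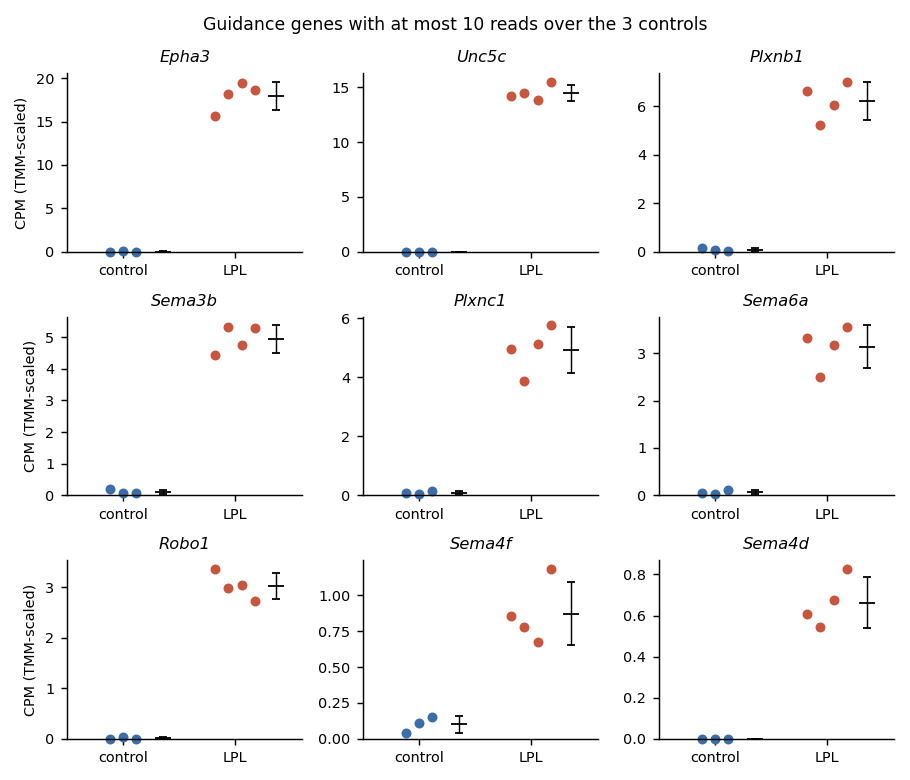
Level in CPM, on an axis from 0, of the 9 guidance genes with at most 10 control reads, with 1 point per library (blue, 3 controls; red, 4 LPL overexpression libraries) and the mean ± SD beside each group. Every overexpression library lies above every control in all 9 panels, from 0.542 CPM or more in Sema4d to 15.7 CPM or more in Epha3.

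Of the 18 semaphorins tested, 8 were higher, 5 lower and 5 did not pass, beside 21.9% higher and 21.3% lower over all genes tested. Among the 8, Sema3b, Sema3d, Sema4d, Sema4f and Sema6a passed the filter only through the overexpression libraries, which set their direction. Of the 7 members of the secreted class 3, 5 rose, Sema3f fell and Sema3g did not pass. Those 5 include Sema3b and Sema3d, set by the filter, and Sema3e, whose call ended in several alternatives. Sema3b, a secreted ligand and the partner of Sema3f on chromosome 9, had 5, 2 and 2 reads in control replicates 1 to 3 and 109, 157, 120 and 147 in LPL overexpression replicates 1 to 4, the order used throughout. Its level went from 0.111 ± 0.0638 CPM (SD, n = 3) to 4.95 ± 0.433 CPM (SD, n = 4), and the ratio of pooled CPM was 44.6 (95% counting interval 23.3 to 98.0). Sema3d had 4, 6 and 2 control reads and 11, 20, 17 and 15 with overexpression, and did not reach 1 CPM in any library. Its log2 fold change was 1.95 (adjusted p = 5.62e-05, SE 0.40). Like Sema3b, it passed the filter only through the overexpression libraries, which set the direction of both. Sema3d, Sema3a, Sema3e and Sema3c all lie on the plus strand of chromosome 5, between 12383385 and 17730268 (mm10). All 4 were called higher, but the direction of Sema3d was set by the filter and the call for Sema3e was not stable.

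Sema3a, a repellent ligand that acts through neuropilin 1, stood at 12.5, 11.6 and 12.3 CPM in the controls and at 16.4, 16.8, 15.8 and 15.6 CPM with overexpression. The groups were apart, and the log2 fold change was 0.41 (adjusted p = 1.52e-07, SE 0.06). Sema3c stood at 13.7, 13.5 and 12.0 CPM and then at 15.4, 17.8, 15.7 and 18.4 CPM, again without overlap, a log2 fold change of 0.36 (adjusted p = 8.93e-06, SE 0.07). Sema3e, which binds plexin D1 without a neuropilin, stood at 2.48, 2.17 and 2.38 CPM and at 3.41, 3.22, 2.26 and 3.13 CPM. Here overexpression replicate 3 lay within the control range. The call for Sema3e (log2 fold change 0.36, adjusted p = 0.0344, SE 0.14) ended in DESeq2 (adjusted p = 0.182), on log2(TPM + 0.5) (0.114), with the replicate number as a block (0.0540), and without control replicate 2 or 3 or overexpression replicate 1, 2 or 4 (0.0507 to 0.134).

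Sema3f, a ligand of neuropilin 2, was the second most abundant semaphorin and fell. It stood at 67.2, 66.8 and 69.4 CPM in the controls and 49.1, 49.4, 50.9 and 52.9 CPM with overexpression, 1.34-fold lower (log2 fold change -0.42, adjusted p = 3.95e-14, SE 0.04). Sema3b and Sema3f are neighbours on the minus strand, 72.3 kb apart. They were called in opposite directions, but that of Sema3b was set by the filter.

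Among the membrane-bound class 4 semaphorins, Sema4b and Sema4c fell and Sema4d and Sema4f rose. The filter set the direction of Sema4d and Sema4f. Sema4c, a ligand of plexin B2, stood at 49.9, 49.6 and 54.3 CPM in the controls and 37.7, 34.9, 36.2 and 39.5 CPM with overexpression, the largest fall among semaphorins that passed (1.38-fold lower, log2 fold change -0.47, adjusted p = 3.4e-13, SE 0.04). Sema4b stood at 28.6, 26.7 and 28.7 CPM and 22.1, 19.4, 20.5 and 20.9 CPM (1.35-fold lower, log2 fold change -0.44, SE 0.05). Both groups of libraries were apart for each of these genes. Sema4d, a ligand of plexin B1, had no control read and 15, 16, 17 and 23 reads with overexpression, at least 17.8-fold above the floor of 3 reads over the control group (0.0372 CPM). Sema4f had 1, 3 and 4 and then 21, 23, 17 and 33 reads, a ratio of 8.85 (95% counting interval 4.31 to 21.1). Sema4a and Sema4g did not pass, at 0.668 ± 0.122 and 0.480 ± 0.0668 CPM for Sema4a and 1.56 ± 0.220 and 2.01 ± 0.292 CPM for Sema4g.

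Class 6 semaphorins are transmembrane ligands of A-type plexins. Sema6b was the most abundant semaphorin per length, at 102 ± 2.23 TPM (a level scaled for gene length and summing to 1000000 over a library) in the controls and 95.4 ± 2.17 TPM with overexpression. In CPM it stood at 123, 122 and 128 and 116, 111, 114 and 115, a fall of 1.09-fold with no overlap (log2 fold change -0.12, adjusted p = 0.000233, SE 0.03). Sema6d stood at 66.0, 64.9 and 60.7 CPM and 53.1, 52.8, 52.9 and 51.5 CPM, 1.21-fold lower (log2 fold change -0.28, SE 0.04). Sema6a had 1, 1 and 3 control reads and 82, 74, 80 and 99 with overexpression, a ratio of 50.4 (95% counting interval 21.4 to 156). Sema6a passed the filter only through the overexpression libraries. Its direction, opposite to the 2 abundant members of its class, was therefore set by the filter. Sema6c and Sema7a were under 1 CPM in every library and did not pass, and Sema5a and Sema5b had at most 2 reads in any library.

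Of the 8 plexins tested, 4 rose, 3 fell and Plxna3 did not pass, beside 21.9% higher and 21.3% lower over all genes tested. The filter set the direction of Plxnb1 and Plxnc1 among the rises. Plxnb1, the receptor of Sema4d, had 4, 2 and 1 control reads and 163, 154, 153 and 195 with overexpression, that is 6.23 ± 0.779 CPM and a ratio of 71.5 (95% counting interval 34.5 to 179). Plxnc1, the receptor of Sema7a, had 2, 1 and 4 and 122, 114, 129 and 160 reads, which is 4.92 ± 0.786 CPM with overexpression and a ratio of 56.5 (95% counting interval 27.2 to 141). Both plexins were nearly absent from the controls and present in each overexpression library. Sema4d and its receptor Plxnb1 both passed the filter only through the 4 overexpression libraries. Their presence in the same libraries was therefore fixed by the filter and says nothing about a pairing of ligand and receptor. Sema7a, the ligand of Plxnc1, stood at 0.349 ± 0.157 and 0.421 ± 0.0659 CPM and did not pass.

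The 4 abundant plexins changed by less than 1.5-fold. Plxnb2 and Plxna1 rose, Plxnd1 and Plxna2 fell, and in each the groups were apart. Plxnd1, the receptor of Sema3e, was the most abundant in the controls at 202 ± 9.53 TPM and stood at 428, 454 and 477 CPM there, against 399, 374, 419.8 and 407 CPM with overexpression (log2 fold change -0.18, adjusted p = 0.00293, SE 0.04). Plxnb2 stood at 346, 338 and 355 CPM and 403, 368, 389 and 416 CPM, a rise of 1.14-fold (log2 fold change 0.19, adjusted p = 2.46e-05, SE 0.03). With these opposite changes Plxnb2 (184 ± 10.2 TPM) and Plxnd1 (182 ± 9.36 TPM) were within their spread of each other in the overexpression libraries, while in the controls Plxnb2 was lower at 159 ± 3.80 TPM. Plxna2 fell the most among plexins, from 364, 379 and 377 CPM to 283, 272, 286 and 285 CPM, 1.33-fold lower (log2 fold change -0.41, adjusted p = 1.15e-19, SE 0.03). The A-type plexins, receptors of class 3 and class 6 semaphorins, thus held 2 falls and 1 rise. Plxna4, the other that fell, stood at 11.4, 11.9 and 10.6 CPM and 8.85, 9.11, 9.24 and 10.4 CPM (log2 fold change -0.27, SE 0.07), a call that ended on log2(TPM + 0.5) (adjusted p = 0.0837). Plxna1 stood at 206, 211 and 209.6 CPM and 233, 213, 223 and 246 CPM, a log2 fold change of 0.13 (adjusted p = 0.00777, SE 0.04) that missed the threshold without control replicate 1 (adjusted p = 0.0520). Plxna3, which did not pass, was at 6.20 ± 0.327 and 5.89 ± 0.574 CPM, and Plxnb3 had at most 6 reads in any library.

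Of the 9 Eph receptors tested, 5 fell, 2 rose and 2 did not pass, beside 21.3% lower and 21.9% higher over all genes tested. The filter set the direction of the rise of Epha3 and the fall of Epha5. The abundant Eph receptors were Ephb4 (116 ± 2.23 TPM in the controls) and Epha2 (111 ± 3.18 TPM), and both fell by less than 1.2-fold. Ephb4 stood at 165, 162 and 168 CPM in the controls and 142, 134, 140.2 and 154 CPM with overexpression (log2 fold change -0.21, adjusted p = 1.78e-05, SE 0.03). Epha2 stood at 162, 155 and 162 CPM and 141, 132, 139 and 146 CPM (log2 fold change -0.19, SE 0.03). In neither gene did a library of 1 group reach the range of the other.

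Epha3 rose from almost no reads. Its gene (ENSMUSG00000052504.6; chromosome 16, 63543538 to 63864158, minus strand, mm10) had 0, 1 and 0 control reads and 386, 537, 490 and 517 with overexpression, a level of 18.0 ± 1.62 CPM and a ratio of 1453 (95% counting interval 260.5 to 57421). Per length it stood at 10.6 ± 0.956 TPM, which ranked it 3 among Eph receptors in those libraries, close to Epha4 (9.45 ± 0.166 TPM). Epha4, a receptor that binds both ephrin classes, fell from 35.3, 35.9 and 34.7 CPM to 22.6, 22.6, 23.3 and 23.1 CPM, 1.54-fold lower (log2 fold change -0.63, adjusted p = 9.62e-18, SE 0.04). Epha7 rose from 4.37, 4.20 and 3.41 CPM to 6.94, 7.32, 6.62 and 7.23 CPM, 1.76-fold higher (log2 fold change 0.81, adjusted p = 9.49e-10, SE 0.10). Epha7 was the other rise among Eph receptors, with no overlap of the groups, as in Epha4. Ephb6, a family member whose kinase domain is inactive, fell from 4.33, 5.04 and 4.83 CPM to 3.00, 2.61, 2.50 and 3.42 CPM, 1.64-fold lower (log2 fold change -0.71, adjusted p = 1.71e-06, SE 0.12). Its groups did not overlap either. Epha5 was low, with 22, 12 and 18 control reads and 8, 9, 5 and 7 with overexpression, 2.40-fold lower. It passed the filter only through the controls. Its call (log2 fold change -1.24, adjusted p = 0.00177, SE 0.33) ended on log2(TPM + 0.5) (adjusted p = 0.181). Ephb2 and Ephb3 did not pass, at 3.80 ± 0.239 and 4.58 ± 0.792 CPM for Ephb2 and 2.71 ± 0.178 and 3.23 ± 0.419 CPM for Ephb3. Epha1, Epha6, Epha8, Epha10 and Ephb1 were too low to test.

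The 250 bases before the start of 4 of these genes are shown because the 3 largest rises (Unc5c, Epha3 and Robo1) and the 3 largest falls (Epha5, Ephb6 and Epha4) mark the ends of the range. Those printed are the ones whose RefSeq start on GRCm38.p6, the assembly of mm10, lies within 20 bases of the start in the deposited files. They are RefSeq sequences written 5′ to 3′ on the gene's strand, and capitals mark a match to 1 of 6 motifs searched on both strands.
Epha3, minus strand, chr16:63864176-63864425: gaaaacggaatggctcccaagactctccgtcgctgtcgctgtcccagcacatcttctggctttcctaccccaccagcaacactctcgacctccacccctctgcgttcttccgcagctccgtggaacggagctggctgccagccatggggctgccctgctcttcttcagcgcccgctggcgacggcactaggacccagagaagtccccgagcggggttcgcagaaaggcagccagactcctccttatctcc
Robo1, plus strand, chr16:72662899-72663148: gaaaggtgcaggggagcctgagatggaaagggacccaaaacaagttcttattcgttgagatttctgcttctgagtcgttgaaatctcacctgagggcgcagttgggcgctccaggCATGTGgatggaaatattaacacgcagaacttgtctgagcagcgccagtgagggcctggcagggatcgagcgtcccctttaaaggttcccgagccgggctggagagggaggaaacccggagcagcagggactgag
Epha5, minus strand, chr5:84417383-84417632: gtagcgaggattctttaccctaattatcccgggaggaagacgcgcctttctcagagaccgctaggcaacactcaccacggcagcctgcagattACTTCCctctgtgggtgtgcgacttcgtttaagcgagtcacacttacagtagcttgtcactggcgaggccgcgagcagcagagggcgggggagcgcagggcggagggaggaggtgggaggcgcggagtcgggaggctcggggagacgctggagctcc
Epha4, minus strand, chr1:77515089-77515338: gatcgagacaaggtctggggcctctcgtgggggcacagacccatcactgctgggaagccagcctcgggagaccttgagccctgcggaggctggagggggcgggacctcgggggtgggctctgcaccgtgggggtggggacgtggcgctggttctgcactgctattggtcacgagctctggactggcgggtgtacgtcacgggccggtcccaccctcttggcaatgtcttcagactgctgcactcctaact
The motifs were the E-boxes CACGTG and CATGTG, the longer form TCATGTG that contains CATGTG, the Sox core ACAAAG, the ETS-type motif GGAAGT and the AP-1 site TGACTCA. Robo1 held CATGTG at position -135 from its start, Epha5 held GGAAGT at -157 on the other strand, and Epha3 and Epha4 held none of the 6 in this window.

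Over windows of 300 bases, 250 before and 50 after each RefSeq start, 29 of the 35 called members had a sequence, 13 of those that rose and 16 of those that fell. ACAAAG was in the window of 6 of the 13 and 1 of the 16, and in 18.7% of the 32851 windows of the whole table. CATGTG was in 2 and 1 (14.2% of all windows), CACGTG in 1 and 2 (7.15%), and TCATGTG in 0 and 0 (3.77%). GGAAGT was in 4 and 6 (23.8%), and TGACTCA in 0 and 2 (5.20%). A gene with several windows was counted once if any of them matched, and a match describes the letters only.

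Of the 7 ephrins tested, 0 rose, 4 fell and 3 did not pass, beside 21.9% higher and 21.3% lower over all genes tested. Efna1, an A-type ligand bound by Epha2, was the most abundant at 60.2 ± 1.78 TPM in the controls and fell from 34.0, 32.7 and 34.6 CPM to 26.2, 24.6, 27.0 and 24.7 CPM, 1.32-fold lower (log2 fold change -0.40, adjusted p = 7.59e-11, SE 0.04). Efna5 fell from 53.3, 53.8 and 57.6 CPM to 46.3, 46.0, 44.95 and 48.6 CPM (log2 fold change -0.24, adjusted p = 1.22e-06, SE 0.04). Both A-type ligands were lower in each overexpression library than in any control. Efnb2, the arterial B-type ligand of Ephb4, stood at 32.8, 33.0 and 33.7 CPM and 31.4, 28.1, 29.4 and 32.7 CPM. Its small fall (log2 fold change -0.13, adjusted p = 0.0169, SE 0.04) was not called in DESeq2 (adjusted p = 0.121), with total-count scaling (0.104), on log2(TPM + 0.5) (0.200), or without control replicate 3 or overexpression replicate 2 or 3 (0.0562 to 0.132). Efnb3 stood at 3.78, 3.51 and 2.88 CPM and 2.76, 2.58, 3.01 and 2.63 CPM, groups that overlap, and its call (log2 fold change -0.31, adjusted p = 0.0463, SE 0.13) ended in DESeq2 (adjusted p = 0.229) and in 11 of the other 16 alternatives (0.0543 to 0.235). Efna2 was too low to test, with at most 6 reads in any library. Efna3, Efna4 and Efnb1 did not pass, with log2 fold changes of 0.34 (SE 0.15), 0.45 (SE 0.22) and 0.17 (SE 0.12). Efna3 and Efna4 were called higher in some alternatives. Efna1, Efna3 and Efna4 are neighbours on chromosome 3, with 32.8 kb and 10.4 kb between them.

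**Figure D3:**
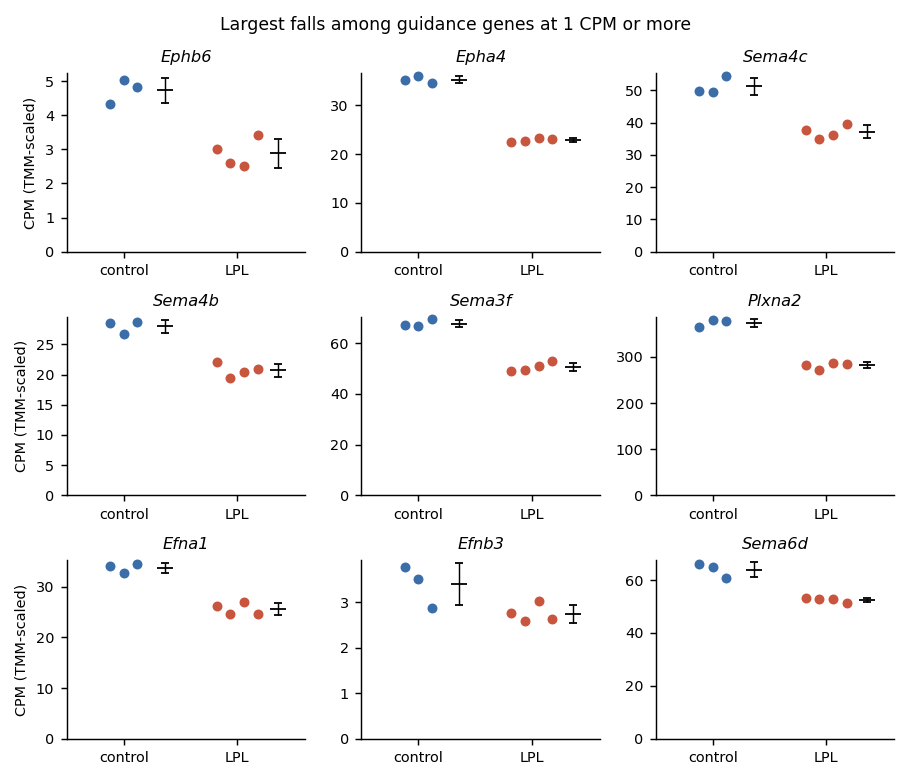
Level in CPM, on an axis from 0, of the 9 largest falls among guidance genes at 1 CPM or more in the controls, with 1 point per library (blue, 3 controls; red, 4 LPL overexpression libraries) and the mean ± SD beside each group. The groups are apart in every panel except Efnb3, and the falls run from 1.64-fold in Ephb6 to 1.21-fold in Sema6d.

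Of the 3 Robo receptors tested, Robo4 fell, Robo3 did not pass and Robo1 rose, a direction set by the filter. Their Slit ligands did not pass or were too low to test. Robo4, the endothelial member of the family and the most abundant guidance gene per length (327 ± 4.09 TPM in the controls), fell from 533, 526 and 536 CPM to 487, 459.7, 487 and 491 CPM, 1.105-fold lower (log2 fold change -0.14, adjusted p = 3.5e-06, SE 0.02). Robo1, a receptor known from axons and many other cells (ENSMUSG00000022883.10; chromosome 16, 72663149 to 73046095, plus strand, mm10), had 0, 1 and 0 control reads and 83, 88, 77 and 76 with overexpression, a level of 3.03 ± 0.262 CPM and a ratio of 244 (95% counting interval 43.5 to 9664). Robo3 stood at 72.3 ± 4.34 and 72.8 ± 4.47 CPM, and the 95% interval of its log2 fold change ran from -0.08 to 0.10. Robo3 and Robo4 end 553 bases apart on opposite strands of chromosome 9, and the counts used keep the strands apart. Robo2 had at most 2 reads in any library.

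Slit2, a ligand of Robo1 and the most abundant Slit, stood at 49.0, 48.4 and 46.1 CPM in the controls and 51.6, 44.3, 44.3 and 51.2 CPM with overexpression. The groups overlapped, and the 95% interval of its log2 fold change ran from -0.10 to 0.10 (adjusted p = 0.981). Slit1 was at 0.868 ± 0.157 and 0.782 ± 0.204 CPM, and Slit3 had at most 4 reads in any library.

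Among netrin receptors, Unc5c rose from no reads while Unc5b did not pass. Unc5c (ENSMUSG00000059921.15; chromosome 3, 141465216 to 141834924, plus strand, mm10) had 349, 428, 348 and 431 reads with overexpression, or 14.2, 14.5, 13.8 and 15.5 CPM, at least 390.5-fold above the control floor. Unc5b, the vascular member of the family, stood at 10.9, 11.2 and 12.2 CPM and 10.6, 10.7, 10.1 and 12.5 CPM, with a 95% interval of the log2 fold change from -0.20 to 0.09. Unc5a and Unc5d had at most 2 reads in any library. Ntn4, a netrin of basement membranes, fell from 45.5, 43.5 and 44.3 CPM to 39.9, 36.1, 37.2 and 39.1 CPM, 1.17-fold lower (log2 fold change -0.22, adjusted p = 9.39e-06, SE 0.04). Ntn1, the ligand best known for Unc5 receptors and Dcc, was at 0.335 ± 0.0411 and 0.376 ± 0.109 CPM and did not pass, and Ntn5 had at most 1 read in any library.

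The make-up of the Unc5 receptors, Eph receptors and plexins differed between the groups when levels were scaled for length. Unc5b gave 99.8 ± 0.380% of the summed TPM of Unc5 receptors in the controls and 71.0 ± 0.768% with overexpression, where Unc5c gave 28.7 ± 0.892%. Epha3 gave 4.61 ± 0.454% of the Eph receptor sum with overexpression, beside 44.5 ± 0.655% for Ephb4 and 43.2 ± 0.546% for Epha2. Among plexins, the share of Plxnb2 was 31.0 ± 0.735% in the controls and 35.8 ± 0.622% with overexpression, and that of Plxnd1 was 39.5 ± 1.00% and 35.5 ± 0.961%. Sema6b kept the largest share of semaphorins in both groups. The summed level of ephrins went from 132 ± 3.29 to 112 ± 2.75 TPM and that of semaphorins from 229 ± 4.04 to 205 ± 4.87 TPM, with no overlap of the groups in either sum. The sums of Robo receptors (362 ± 4.52 and 339 ± 10.3 TPM) and netrins (39.0 ± 1.11 and 34.1 ± 1.62 TPM) were also lower with no overlap. These 2 sums mostly restate single genes, as Robo4 gave 90.5% and Ntn4 99.5% of them in the controls. The sum of Eph receptors was lower (249.7 ± 5.05 and 229.6 ± 11.2 TPM). Its lowest control and highest overexpression library were side by side at 244.02 and 243.97 TPM. Unc5 receptors went the other way without overlap, from 6.38 ± 0.357 to 8.79 ± 0.729 TPM. This sum restates Unc5c, which had no control read and 2.52 ± 0.128 TPM with overexpression, its direction set by the filter. Unc5b stood at 6.37 ± 0.366 and 6.25 ± 0.586 TPM. Plexins (513 ± 11.6 and 514 ± 24.8 TPM) and Slits (6.63 ± 0.296 and 6.72 ± 0.501 TPM) overlapped. These sums are descriptions, with no test.

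**Figure D4:**
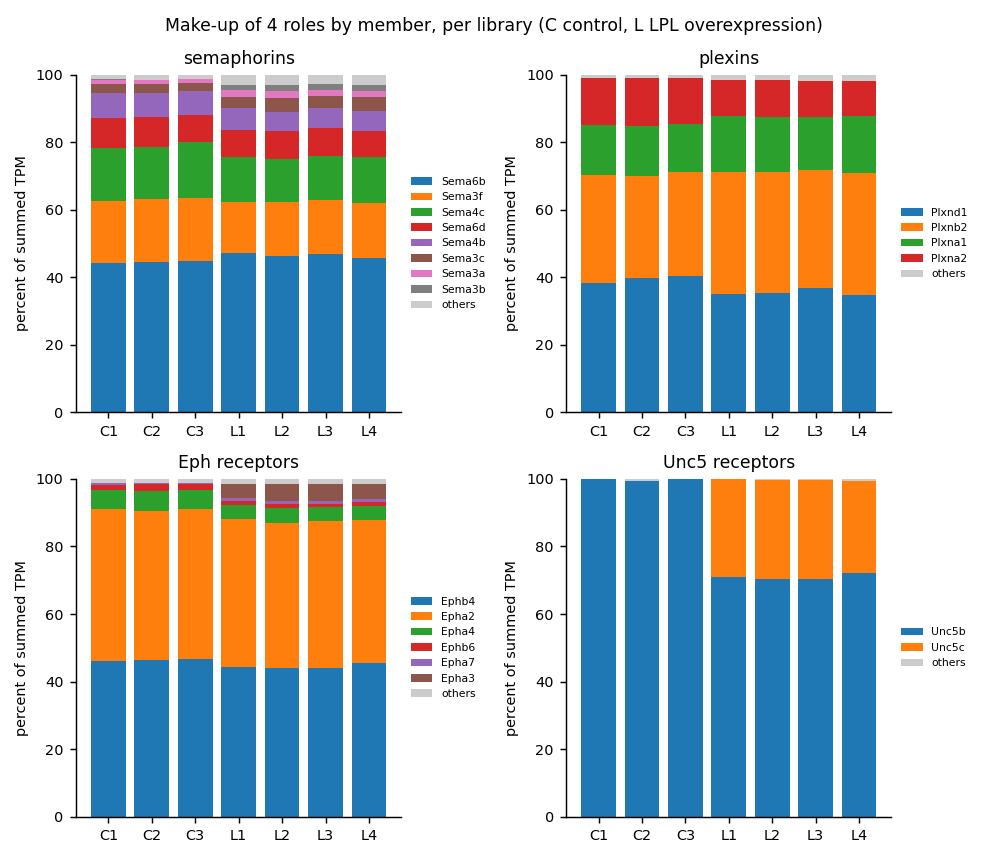
Share of the summed TPM of semaphorins, plexins, Eph receptors and Unc5 receptors given by each member, as stacked bars in percent for each of the 3 control (C) and 4 LPL overexpression (L) libraries. Unc5c (from 0 to about 28.7% of its role) and Epha3 (to 4.61%) appear in the overexpression bars.

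Of 82 other genes of these pathways, 67 were tested, with a median log2 fold change of -0.05. Of these 22 rose, 26 fell and 19 did not pass, beside 21.9% higher and 21.3% lower over all genes tested. Both neuropilins, the co-receptors of class 3 semaphorins, rose: Nrp2, which binds Sema3f, from 22.2 ± 1.70 to 46.7 ± 2.02 CPM and Nrp1, named after its value was seen, from 32.3 ± 1.86 to 41.9 ± 1.47 CPM. Met, a growth factor receptor that associates with B-type plexins, rose from 94.7 ± 1.92 to 191 ± 3.01 CPM. Gpc1, a glypican that binds Slits, and Pdzrn3 had no control read, so both passed the filter only through the overexpression libraries. They stood at 21.2 ± 2.21 and 2.09 ± 0.254 CPM there, at least 567-fold and at least 56.2-fold above the control floor. Enah, an actin regulator downstream of Robo receptors, rose from 0.475 ± 0.227 to 9.51 ± 0.826 CPM. It too passed the filter only through the overexpression libraries, which set its direction. In the other direction, Kdr, the VEGF receptor, fell from 336 ± 5.05 to 267 ± 7.41 CPM, Grb10 from 97.8 ± 2.24 to 75.4 ± 2.08 CPM, and Crmp1, of the collapsin response mediator family that acts after semaphorins, from 116 ± 2.79 to 92.6 ± 1.07 CPM. Apart from Nrp1, these are the 8 genes with the lowest adjusted p among the other pathway genes (6.77e-14 or lower).

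Of 13 genes of arterial and venous identity, which include the members Efnb2, Ephb4 and Unc5b, 7 were tested. Of these 6 fell, 0 rose and Unc5b did not pass, beside 21.3% lower and 21.9% higher over all genes tested. Besides Efnb2 and Ephb4 the falls were in arterial Dll4, from 30.3 ± 2.95 to 17.0 ± 1.70 CPM, in Cxcr4, and in venous Nr2f2 and Emcn. The falls thus included genes of both identities. That of Nr2f2 was close to the threshold in edgeR (adjusted p = 0.0488). The call of Efnb2 ended in several alternatives, and the groups overlapped in Cxcr4. Gja4, Gja5, Hey1, Hey2, Sox17 and Aplnr were too low to test.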

How the data were processed

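RNA of 3 control and 4 LPL overexpression libraries was made into stranded total-RNA libraries, per the labels' protocols. The submitters' processing notes name STAR and mm10, with no version. The deposited counts are raw whole reads for each gene, and the reverse orientation, the sense strand of this kit, was used (97.0% to 97.1% of oriented reads). The authors' deposited TPM values sum to 1000000 per library, and values computed from the counts and exonic lengths matched them.

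Genes were tested with edgeR 4.0.16 (R 4.3.3), TMM factors, filterByExpr by group, group as the only term and robust dispersion, with Benjamini-Hochberg adjustment over all 13639 genes tested. The standard error of a log2 fold change was taken as its size divided by √F. Levels are TMM-scaled CPM. Ratios for genes with 1 to 10 control reads are of pooled CPM with exact 95% intervals, which, like the floor of 3 reads, cover counting error only. No replicate pair of a group was within sampling noise (chi-square per degree of freedom 1.65 to 4.13). The steps were tested on simulated data.

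The members and lists were chosen with earlier results of these data known. Members that passed and reached 1 CPM or 2-fold are named with the value in every library, as is the most abundant member of each role. Of the other pathway genes, up to 8 with the lowest adjusted p are named, with group means. Alternatives were DESeq2 1.42.0, limma 3.58.1 on log2(TPM + 0.5), other scalings and filters, both read orientations, a replicate block and leaving out each library. Marker lists of other cell types gave, as tested genes higher and lower, 2 and 0 for mural cells and fibroblasts, 1 and 1 for neurons, 5 and 2 for Schwann cells (Sox10 shared with the pigment list), 1 and 2 for lymphatic endothelium and 1 and 1 for macrophages and blood. No islet endocrine marker was tested, and of the endothelial markers 1 was higher and 9 lower.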

Additional observations from a re-analysis of the deposited data

Results flagged for a closer look

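In Robo4, overexpression replicate 2 lay below the other 3 libraries of its group, at 459.7 CPM against 487 to 491 CPM, a gap of 0.868 of the group's range. The fall of Robo4 was called in all 17 alternatives, the one without that library included. In Slit1, a gene that did not pass, the same library lay above the others, at 1.08 CPM against 0.650 to 0.720 CPM, a gap of 0.839 of the range. The 51 members tested were all checked in this way, and chance flags about 1 in 20 groups.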

How the results depend on the processing

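The count of guidance genes called stayed between 31 and 36 over the 17 alternatives, against 35, with 15 to 19 higher and 15 to 19 lower. Leaving out each library in turn gave 33 to 36. For the 37 named genes, 600 of 629 values stayed on their side of the threshold, in 31 genes throughout, and 29 kept direction but missed it. The 600 include the values of Sema3d and of the genes with at most 10 control reads. The filter set the direction of these genes, so their values could hardly change side and say little about robustness. The 600 also include values of Slit2 and Unc5b, which were counted as the same for not passing. No gene called changed direction, while Slit2 and Unc5b, which did not pass, crossed 0 in some alternatives (total count gave 0.04 for Slit2, and leaving out control replicate 3 gave 0.0033 for Unc5b). The losses were in Sema3e, Efnb2, Efnb3, Plxna1, Plxna4 and Epha5, as given with those genes. Of the members not named as changed, Efna3, Efna4, Ephb2, Ephb3, Sema4g and Plxnb3 were called higher in at least 1 alternative. The replicate number as a block gave 35 guidance genes and 5794 of all genes, against 5888. Same-numbered libraries did not deviate together (correlations -0.02, -0.04 and 0.02), so the numbers were not taken to pair libraries. Members with few reads, such as Epha5 and Sema3d, are limited by depth, and Plxnb3, called higher with no filter on low counts (log2 fold change 3.18, adjusted p = 0.0103), rests on 1 control read and 16 reads with overexpression.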

Other observations

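Reads in the forward orientation, which is antisense for this kit, were not used in the comparisons and were rare for most guidance genes. Over the 7 libraries Epha1 had 459 forward reads and 53 reverse reads, and its span overlaps Zyx, which lies on the opposite strand and had 36667 reads. Efna3 had 143 forward reads beside 408 reverse reads and overlaps Gm15998 on the opposite strand. Plxna2 had 1442 forward reads, 2.34% of its oriented reads, and Slit1 had 59 forward and 155 reverse reads. In Epha3, Robo1 and Unc5c, 3 of the genes with at most 10 control reads, all reads were in the sense orientation.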
